A study of Mus musculus with 26 samples.

Results

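The comparison described here set brown preadipocytes that carry a kinase-dead insulin receptor, K1030R, against cells that lack both the insulin receptor (IR) and the insulin-like growth factor 1 receptor (IGF1R), called DKO, with neither given insulin. Its members are the 6 libraries labelled KD1 to KD3 and DKO1 to DKO3, out of 26 in the series, and the 15402 genes of 52962 in the deposited table with a level above 0.5 CPM (counts scaled to the size of the library) in 4 or more libraries of the 26. At the edge of that filter, the fourth-highest CPM was 0.501 for *Lbx2*, which was kept, and 0.493 for *Dlgap1*, which was not.

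The cells came from brown fat of newborn mice with floxed *Insr* and *Igf1r*, were immortalized with SV40 T antigen, and lost both genes through an adenovirus carrying GFP and Cre, after which GFP-positive cells were sorted. K1030R cells are DKO cells transduced with a retrovirus encoding FLAG-tagged human IR in which the lysine that binds ATP is replaced, selected with hygromycin. The study's methods also describe DKO cells given an empty retroviral vector, and the labels do not say whether the DKO libraries are of those cells. Both groups, 3 dishes each, had been without serum for 6 h, and share the deletions, the T antigen, and the Cre virus. The same treatment was given to the lines used for side-by-side values, 3 dishes each: normal IR, ∆CT, which lacks the C-terminal tail, and JMO, which keeps only the juxtamembrane part of the intracellular domain. The sources used here do not state whether the dishes of a group came from separately made lines, so p-values measure the spread between these samples, which may be technical, and the receptor cannot be told apart from anything else that differs between the lines.

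The insulin receptor is a tyrosine kinase whose ligand-bound form phosphorylates itself and its substrates, and through them drives the PI3K and ERK pathways. A receptor without kinase activity still binds insulin and still reaches the cell surface. Interferon-stimulated genes, on which much of this comparison turns, encode the antiviral and antigen-presenting machinery that cells switch on through JAK kinases and transcription factors of the STAT and IRF families after interferon binds its receptor. The transcription factor complex binds a paired GAAA sequence in their promoters, the interferon-stimulated response element.

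Totals of the 6 libraries ran from 17228786 to 24694545 counts, mitochondrial transcripts took 2.97% to 3.32% of them in DKO and 3.53% to 3.62% in K1030R, and dishes of 1 group differed by more than sampling noise. *Insr* transcripts, counted on the mouse sequence although the introduced receptor is human, were at 24.3, 24.8 and 22.3 CPM in the DKO dishes and 76.9, 69.8 and 66.7 in the K1030R dishes (log2 fold change 1.58). *Igf1r*, the other deleted gene, was at 27.9, 24.7 and 28.6 CPM in the DKO dishes and 35.2, 32.8 and 32.8 in the K1030R dishes (log2 0.31 ± 0.05 SE, edgeR, Benjamini-Hochberg adjusted p = 2.00e-05). Transcripts of both genes were thus counted in the DKO libraries. The deposited values are per gene and do not show whether the deleted exons were read, so they do not check the deletions. The study reported that qPCR and immunoblotting found neither receptor in DKO cells, and that its proteomics detected neither there. Of 7 preadipocyte and stromal markers, 5 were tested, with a summed level of 835 to 856 CPM in DKO and 798 to 811 in K1030R. *Pdgfra* and *Pdgfrb* were present in both groups, *Dlk1* was at 0 counts in DKO and 4 in K1030R, *Ucp1* and *Adipoq* were at 0 in both, and 2 of the 5 were called higher in K1030R (*Thy1*, *Cd34*) and 1 lower (*Ly6a*) by the rule of the next paragraph. Of 9 brown lineage markers 4 were tested and 0 called. *Zic1* and *En1* were at 121 ± 3.10 and 22.3 ± 0.976 CPM in DKO (mean ± SD, n = 3) and 121 ± 2.93 and 18.9 ± 0.127 in K1030R, and *Ebf3* and *Ppargc1a* at 26.7 ± 1.54 and 5.78 ± 0.414 in DKO and 30.1 ± 0.907 and 9.17 ± 0.408 in K1030R. Without a minimum fold *En1* was significantly lower (log2 -0.24), *Ebf3* and *Ppargc1a* were higher (log2 0.17 and 0.66), and *Zic1* did not pass the test (adjusted p = 0.835 in edgeR). *Ebf3* no longer passed without K1030R replicate 3 (0.15), without DKO replicate 2 (0.14), or with DESeq2 (0.17).

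A gene is called here when its change exceeds 1.5-fold with an adjusted p below 0.05 (edgeR's minimum-fold test, Benjamini-Hochberg over all tested genes). By this rule 2.04% of tested genes were higher and 3.25% lower in K1030R than in DKO cells, against 21.2% and 20.4% without a minimum fold, with a median log2 fold change of 0.01 over all genes. The lower genes moved further: 173 of 500 fell more than 4-fold and 73 more than 8-fold, against 70 and 15 of the 314 higher ones. The 3 values of 1 group lay wholly outside those of the other for 50.5% of all tested genes, and for all but 1 of the called genes. These shares are the background against which the gene groups that follow are read. In bulk RNA, fewer expressing cells and less RNA per cell cannot be told apart.

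**Figure D1:**
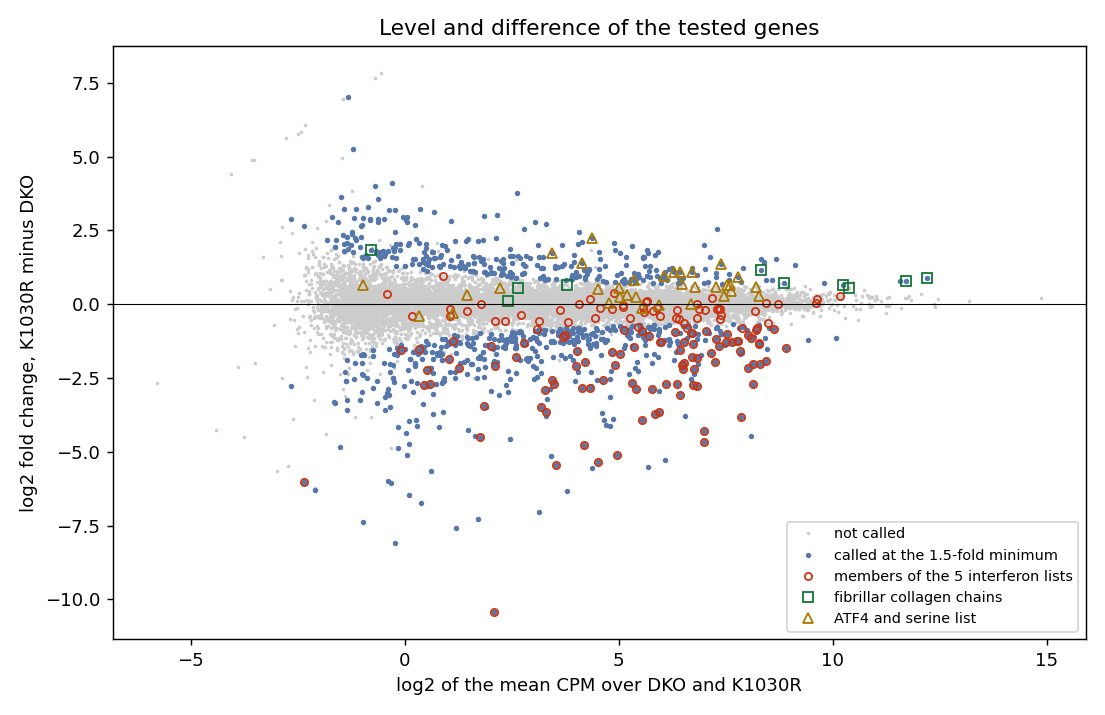
Each point is 1 tested gene, with the log2 of its mean CPM over both groups on the x axis and its log2 fold change (K1030R minus DKO) on the y axis; 7 tested genes at 0 in all 6 libraries are not drawn. Members of the 5 interferon lists (red circles) lie mostly below 0, the lowest being *Slfn2*, whose fitted value rests on 0 counts in K1030R cells, while fibrillar collagen chains (green squares) and genes of the ATF4 list (triangles) lie mostly above it.

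Interferon-stimulated genes fell in K1030R cells. Lists for 5 roles were examined: the OAS and ISG15 system, antiviral effectors, nucleic acid sensors, MHC class I presentation, and interferon receptors with their JAK, STAT, and IRF proteins. Of 156 members, 146 passed the filter and 91 of these (62.3%) were called lower, against 3.25% of all genes, while 0 were called higher. Without a minimum fold 122 were lower and 7 higher, and the median log2 fold change was -1.25. The summed level of the tested members was 20502.8, 20534.8 and 22317.7 CPM in the DKO dishes and 11007.2, 11510.3 and 11124.4 in the K1030R dishes, so that DKO replicate 3 was the highest and the groups did not overlap. Without that library 85 members were called lower.

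Among the antiviral effectors 41 of 53 tested members were called lower (median log2 -1.56). *Rsad2* (ENSMUSG00000020641, chr12:26442746-26456452, all positions in GRCm38), which encodes viperin, an enzyme that makes a chain-terminating nucleotide, was at 42.6, 47.5 and 43.7 CPM in the DKO dishes and 1.30, 1.01 and 0.983 in the K1030R dishes. That is a log2 fold change of -5.35 ± 0.13 (SE; adjusted p = 1.62e-27 in edgeR), with no overlap between the groups. *Ifit1* (ENSMUSG00000034459, chr19:34640871-34650009), which binds viral RNA caps, kept a higher level, at 545, 525 and 578 CPM in the DKO dishes and 144, 153 and 132 in the K1030R dishes (log2 -1.94). *Mx1*, a dynamin-like GTPase against influenza, was at 17.6, 22.2 and 18.2 CPM in the DKO dishes and 3.32, 2.67 and 2.95 in the K1030R dishes (log2 -2.70). *Bst2* (tetherin, which holds budding virus at the membrane) and *Ifitm3* (which blocks viral fusion) fell by 1.98 and 1.14 on the log2 scale. In contrast, *Ifit2* went from 188 ± 1.96 to 146 ± 5.89 CPM (log2 -0.37) and *Samhd1*, which depletes nucleotides, from 173 ± 1.77 to 153 ± 4.29 (log2 -0.18), both significant but short of the minimum fold. Outside the list, *Rnf213*, a giant ubiquitin ligase, had the largest fall in CPM of any called gene, at 1403, 1365 and 1705 CPM in the DKO dishes and 644, 743 and 658 in the K1030R dishes (log2 -1.13), a call lost without DKO replicate 3 (-1.02).

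Some transcripts were at or near 0 counts in K1030R cells. *Slfn2* (ENSMUSG00000072620, chr11:83065112-83070678), a member of the Schlafen family, had 524 counts over the 3 DKO libraries and 0 over the 3 K1030R libraries, which is at least 161-fold lower taking 3 counts over the group as the floor. *Trim30d* had 399 and 2 counts, a ratio of 184 (95% counting interval 50.5 to 1520), and its neighbour *Trim30c* had 183 and 3, a ratio of 56.1 (18.9 to 275). The predicted genes *Gm8995* and *Gm2619* had 278 and 153 counts in DKO and 1 each in K1030R, ratios of 256 (45.5 to 10140) and 141 (24.9 to 5594). These bounds and intervals cover counting error only. *Sp110* and *Sp140*, which encode nuclear body proteins, were at 21.6, 23.1 and 23.5 CPM in the DKO dishes and 0.651, 0.352 and 0.569 in the K1030R dishes and at 41.4, 41.6 and 39.6 CPM in the DKO dishes and 1.07, 0.755 and 0.776 in the K1030R dishes, respectively (log2 -5.44 and -5.57). The Schlafen, *Trim30*, *Sp*, *Oas1*, *Gbp*, *Ifi200*, *Apol9*, and H2-Q genes are families of near-identical copies among which kallisto divides shared reads, so the split between their members is uncertain.

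In the OAS and ISG15 system 13 of 15 members were called lower (median log2 -1.79), and all 15 were significant without a minimum fold. The OAS enzymes make 2-5A, an antiviral messenger. *Oas2* (ENSMUSG00000032690, chr5:120730333-120749853) was at 228, 226 and 285 CPM in the DKO dishes and 7.34, 11.2 and 10.1 in the K1030R dishes (log2 -4.68 ± 0.25 SE), *Oas3* at 81.3, 82.2 and 101 CPM in the DKO dishes and 5.51, 5.79 and 6.0 in the K1030R dishes (log2 -3.93), and *Oas1g* at 56.6, 60.6 and 63.3 CPM in the DKO dishes and 1.24, 2.52 and 1.35 in the K1030R dishes (log2 -5.12). *Isg15* (ENSMUSG00000035692, chr4:156199424-156200818), a ubiquitin-like modifier, was at 148, 146 and 171 CPM in the DKO dishes and 15.9, 20.4 and 18.5 in the K1030R dishes (log2 -3.08 ± 0.19), with DKO replicate 3 the highest and no overlap. Its activating enzyme *Uba7*, conjugating enzyme *Ube2l6*, and removing enzyme *Usp18* fell by 1.68, 1.28, and 1.79 on the log2 scale. The ligase *Herc6* went from 123 ± 11.5 to 70.0 ± 2.06 CPM (log2 -0.82) and was not called. The adjusted p of the genes named here was 1.04e-05 or smaller in edgeR.

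In the list of sensors of foreign nucleic acid 16 of 25 tested members were called lower (median log2 -1.08), and 21 were lower without a minimum fold. *Zbp1* (ENSMUSG00000027514, chr2:173206612-173218923), which binds Z-form nucleic acid and triggers necroptosis, was at 33.3, 33.5 and 39.3 CPM in the DKO dishes and 1.01, 1.66 and 1.14 in the K1030R dishes (log2 -4.78). The RNA helicases *Ddx58* (RIG-I), *Ifih1* (MDA5), and *Dhx58* (LGP2) had log2 fold changes of -0.87, -1.29, and -2.07, and the endosomal receptor *Tlr3* of -1.08. The *Ddx58* call was lost without K1030R replicate 1 (-0.85) or 3 (-0.85) or DKO replicate 1 (-0.90) or 3 (-0.80), with upper-quartile scaling (-0.87), with limma (-0.88), and with DESeq2 (-0.88). *Mavs*, the adaptor of the RNA helicases, and *Tmem173* (STING), which acts downstream of the DNA sensor cGAS, did not pass the test: *Mavs* was at 34.9 ± 0.971 CPM in DKO and 34.1 ± 1.89 in K1030R, and *Tmem173* at 48.3 ± 2.60 and 50.9 ± 2.80, with adjusted p of 0.694 and 0.241 (edgeR). *Cgas* itself was significantly lower (log2 -0.46) without a call. *Tlr6* was the only tested member of the list significantly higher (log2 0.96), at 1.26 ± 0.168 CPM in DKO and 2.44 ± 0.459 in K1030R cells; it encodes a cell-surface receptor for lipopeptides, not a nucleic acid sensor. *Casp4*, which encodes the caspase-11 sensor of bacterial lipopolysaccharide and stands in the apoptosis list, was at 28, 27.2 and 25.5 CPM in the DKO dishes and 4.20, 4.48 and 4.55 in the K1030R dishes (log2 -2.60).

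MHC class I presentation fell at several steps, with 18 of 28 tested members called lower (median log2 -1.18). The heavy chain *H2-K1* (ENSMUSG00000061232, chr17:33996017-34000347) was at 190.1, 198 and 208 CPM in the DKO dishes and 28.1, 30.1 and 28.5 in the K1030R dishes (log2 -2.78 ± 0.06 SE), and *H2-D1* at 427, 454 and 485 CPM in the DKO dishes and 110.4, 115 and 109 in the K1030R dishes (log2 -2.03). The light chain *B2m* (ENSMUSG00000060802, chr2:122147686-122153083) was among the 5 largest falls in CPM, at 682, 691 and 745 CPM in the DKO dishes and 244, 264 and 246 in the K1030R dishes (log2 -1.49). The peptide transporter *Tap1*, the trimming enzyme *Erap1*, and the immunoproteasome subunits *Psmb8* and *Psmb9* had log2 fold changes of -1.44, -0.90, -2.18, and -2.08. *Nlrc5*, the transactivator of these genes, was at 24.7, 25.1 and 27.6 CPM in the DKO dishes and 5.98, 6.59 and 5.74 in the K1030R dishes (log2 -2.08). The general folding proteins in the same list were not lower: *Calr* and *Canx* were higher by log2 0.27 and 0.19, and *Pdia3* was at 771 ± 19.2 CPM in DKO and 798 ± 5.62 in K1030R cells (adjusted p = 0.175 in edgeR).

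Of the signalling chain upstream, 3 of 25 tested members were called lower, with a median log2 fold change of -0.12. *Irf7* (ENSMUSG00000025498, chr7:141262706-141266481), which amplifies type I interferon, was at 129, 143 and 171 CPM in the DKO dishes and 30.3, 34.7 and 32.3 in the K1030R dishes (log2 -2.19). *Stat2* (ENSMUSG00000040033, chr10:128270559-128292849) was at 427, 417 and 489 CPM in the DKO dishes and 168, 183 and 172 in the K1030R dishes (log2 -1.35 ± 0.11 SE), with no overlap between the groups. *Irf9*, the DNA-binding partner of STAT2, fell by 0.63 on the log2 scale, without a call. The receptor chains *Ifnar1* and *Ifnar2* were at 133 ± 2.45 and 59.7 ± 0.683 CPM in DKO and 154 ± 4.77 and 51 ± 2.27 in K1030R cells (log2 0.21 and -0.23), and the kinases *Jak1* and *Tyk2* did not pass the test (log2 0.06 and -0.10, adjusted p = 0.197 and 0.207 in edgeR). Interferon transcripts were near 0 and untested, with 14 counts of *Ifnb1* and 5 of *Ifna4* over the 3 DKO libraries and 4 and 0 over the 3 K1030R libraries.

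Macrophages express many of these genes, and their markers were measured beside them. Of 5 macrophage markers 3 were tested, with a summed level of 14.1 to 16.3 CPM in DKO and 7.45 to 8.05 in K1030R cells. *Lyz2* was at 10.6, 12.1 and 11.9 CPM in the DKO dishes and 4.97, 5.69 and 4.92 in the K1030R dishes (log2 -1.15, called lower). *Adgre1* (F4/80) was at 0 counts in both groups, and *Ptprc* (CD45) at 11 counts over the DKO and 18 over the K1030R libraries. The part of *Lyz2*-expressing cells in the fall was not tested.

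Promoters of genes that fell are printed here because they hold the response element described above. They run from 250 bases before to 50 after the RefSeq start in GRCm38.p6, and capitals mark 2 GAAA half-sites separated by 2 bases (GAAANNGAAA) on either strand; matches may overlap. The genes shown are the effectors *Rsad2* and *Ifit1*, an OAS enzyme, *Isg15*, the MHC light chain, and a signalling protein; no sensor is shown.
Rsad2 (chr12:26456403-26456702, minus strand): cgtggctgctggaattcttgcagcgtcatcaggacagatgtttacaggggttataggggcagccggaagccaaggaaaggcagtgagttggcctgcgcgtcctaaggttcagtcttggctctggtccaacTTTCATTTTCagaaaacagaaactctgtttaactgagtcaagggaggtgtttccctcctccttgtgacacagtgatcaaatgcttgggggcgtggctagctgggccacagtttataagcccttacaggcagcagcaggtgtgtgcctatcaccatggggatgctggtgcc
Oas3 (chr5:120777610-120777909, minus strand): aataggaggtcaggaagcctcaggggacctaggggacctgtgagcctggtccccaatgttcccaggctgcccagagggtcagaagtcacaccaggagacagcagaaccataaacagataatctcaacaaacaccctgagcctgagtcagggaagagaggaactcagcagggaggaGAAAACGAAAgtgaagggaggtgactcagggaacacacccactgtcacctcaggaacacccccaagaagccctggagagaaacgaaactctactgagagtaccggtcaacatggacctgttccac
Isg15 (chr4:156200769-156201068, minus strand): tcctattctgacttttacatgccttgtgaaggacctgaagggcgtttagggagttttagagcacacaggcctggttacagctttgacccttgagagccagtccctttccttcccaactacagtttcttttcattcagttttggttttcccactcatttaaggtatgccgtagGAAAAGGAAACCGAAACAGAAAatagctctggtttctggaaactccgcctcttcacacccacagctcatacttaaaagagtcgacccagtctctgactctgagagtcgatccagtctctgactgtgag
Ifit1 (chr19:34640639-34640938, plus strand): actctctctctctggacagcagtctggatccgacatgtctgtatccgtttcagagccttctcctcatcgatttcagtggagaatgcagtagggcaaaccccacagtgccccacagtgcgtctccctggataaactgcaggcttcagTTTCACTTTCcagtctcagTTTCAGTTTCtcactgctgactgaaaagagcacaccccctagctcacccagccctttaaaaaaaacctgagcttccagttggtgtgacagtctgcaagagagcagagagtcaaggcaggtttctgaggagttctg
B2m (chr2:122147437-122147736, plus strand): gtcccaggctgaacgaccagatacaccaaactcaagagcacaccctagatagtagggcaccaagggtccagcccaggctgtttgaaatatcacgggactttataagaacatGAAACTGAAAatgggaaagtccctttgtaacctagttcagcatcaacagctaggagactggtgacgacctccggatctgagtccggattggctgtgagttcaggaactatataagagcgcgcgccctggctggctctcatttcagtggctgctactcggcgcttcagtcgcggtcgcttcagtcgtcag
Stat2 (chr10:128270248-128270547, plus strand): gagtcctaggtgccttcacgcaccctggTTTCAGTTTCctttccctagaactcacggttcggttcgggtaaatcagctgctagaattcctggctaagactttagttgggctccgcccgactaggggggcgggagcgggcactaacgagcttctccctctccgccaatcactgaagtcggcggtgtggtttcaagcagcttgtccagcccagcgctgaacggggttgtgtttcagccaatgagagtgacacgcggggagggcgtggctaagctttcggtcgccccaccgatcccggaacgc
The *Isg15* promoter holds 3 overlapping matches and that of *Ifit1* holds 2, while the others hold 1 each. Of the 91 interferon-list genes called lower, 68 had a promoter in the table, and 36 of these (52.9%) held the element, as did 46 of the 116 tested members with a promoter (39.7%), called or not, against 3.79% of the 10829 tested genes with a promoter and 3.99% of all 27025. Among all genes called lower the share was 18.8% (63 of 335), and among those called higher 3.06% (7 of 229). *Oasl2* and *Irf7*, both called lower, have no match in this window. A match describes letters and not a bound site.

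**Figure D2:**
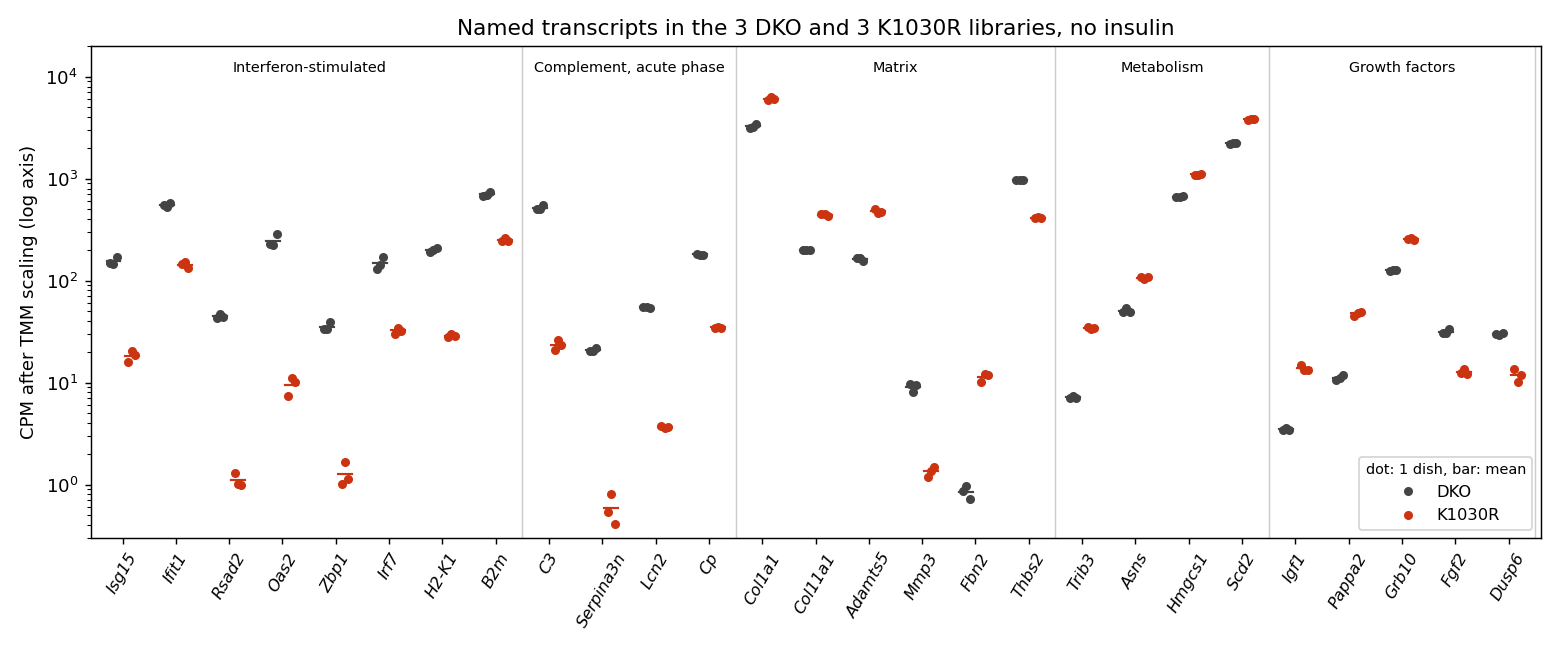
CPM after TMM scaling (log axis) of 27 named genes in the DKO (dark) and K1030R (red) libraries, with 1 dot per dish and a bar at the mean. The groups do not overlap for any gene shown, from *Serpina3n* at under 1 CPM in K1030R cells to *Col1a1*, which averages 6099 ± 187 CPM there.

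The interferon genes were next compared between K1030R and the other receptor lines. For this 13.9% of all tested genes were significantly higher and 16.3% lower in K1030R than in IR cells, without a minimum fold. Of the 146 interferon-list members, 99 were lower in K1030R than in IR cells and 10 higher, with a median log2 difference of -0.52. *Oas2*, at 9.55 ± 1.98 CPM in K1030R cells (mean ± SD, n = 3), was at 36.4 ± 1.39 in IR, 11.3 ± 6.68 in ∆CT, and 165 ± 26.3 in JMO cells. *Isg15* was at 18.3 ± 2.26 CPM in K1030R, 54.5 ± 9.26 in IR, 16.6 ± 7.0 in ∆CT, and 114 ± 7.56 in JMO cells. The K1030R level was below IR for both (log2 -1.91 and -1.57, adjusted p = 6.28e-05 and 8.47e-06) and below JMO (log2 -4.10 and -2.63, adjusted p = 2.91e-10 and 2.30e-09 in edgeR). *Irf7*, at 32.4 ± 2.22 CPM in K1030R cells, was at 59.9 ± 4.57 CPM in IR, 25.8 ± 11 in ∆CT, and 139.5 ± 10.3 in JMO cells.

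Against ∆CT cells few genes differed. Over all genes 1.95% were higher and 1.49% lower in K1030R, 529 in all, compared with 4650 against IR and 5451 against JMO. The totals fell to 168 higher and 136 lower without K1030R replicate 1, to 161 and 114 without K1030R replicate 3, and to 177 and 145 without ∆CT replicate 1, against 300 and 229 with every library. Of the interferon-list members 10 were higher and 1 lower than in ∆CT cells, with a median log2 difference of 0.14. *Oas2* and *Isg15* did not pass the test there (log2 -0.21 and 0.16, adjusted p = 0.847 and 0.824 in edgeR). The SD between ∆CT dishes was 7.0 CPM for *Isg15*, with ∆CT replicate 3 above the other dishes. Against JMO cells, 18.0% of all genes were higher and 17.4% lower in K1030R, and 121 of the 146 members were lower. For *Oas2*, *Isg15*, and *Irf7*, K1030R and ∆CT cells had the lowest means, followed by IR. These comparisons share the K1030R libraries and are not independent of each other.

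**Figure D3:**
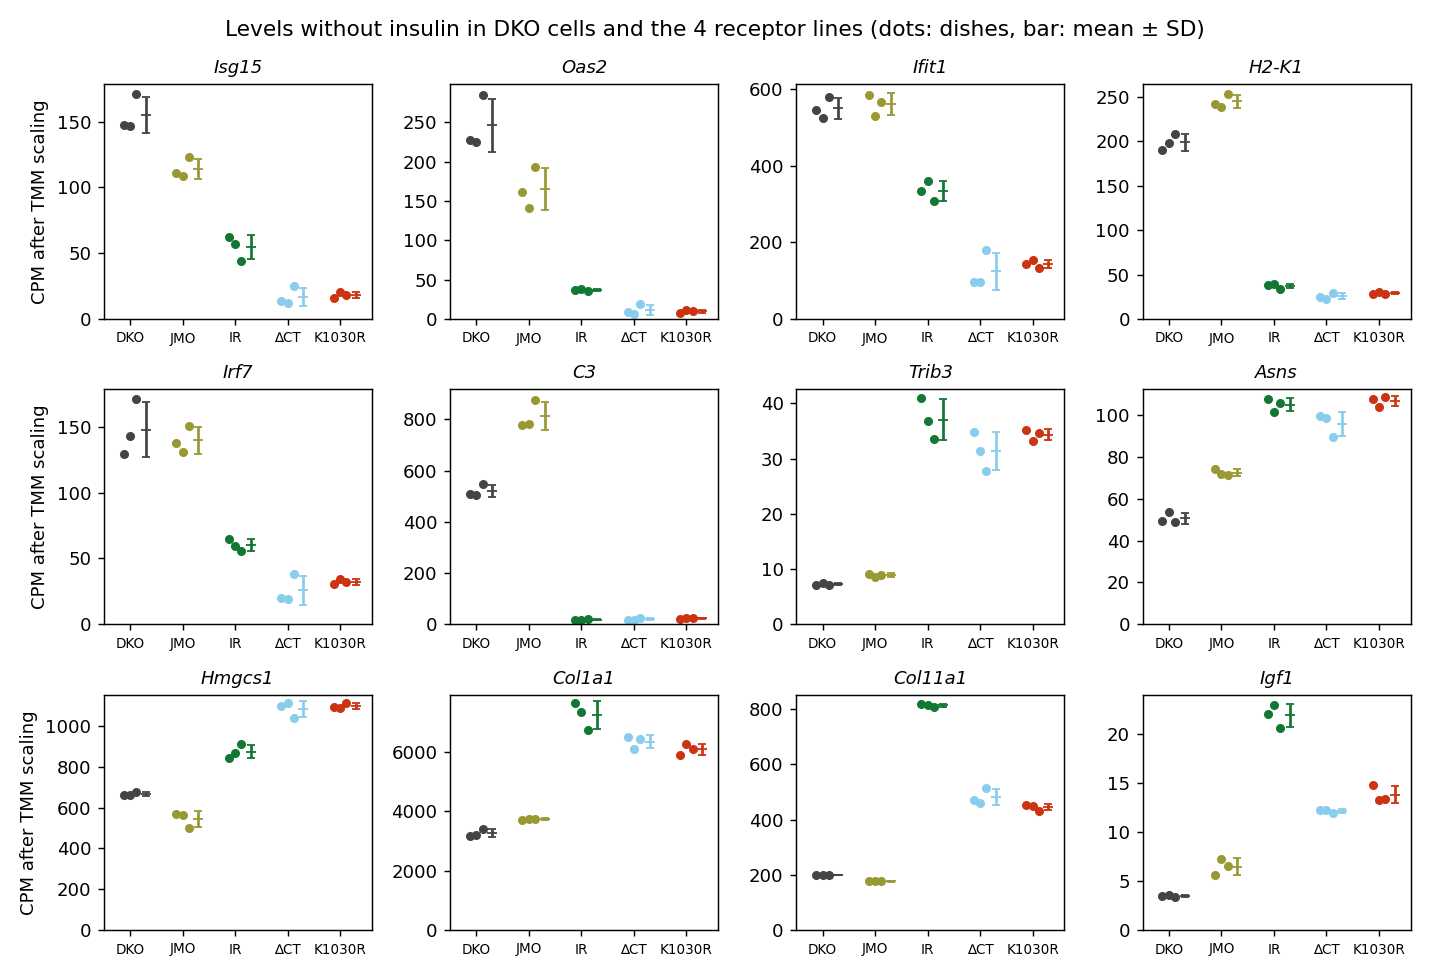
CPM (linear axis from 0) without insulin of 12 genes in DKO, JMO, IR, ∆CT, and K1030R cells, with 1 dot per dish and mean ± SD beside them (n = 3). Interferon genes (*Isg15*, *Oas2*, *Ifit1*, *Irf7*) are lowest in ∆CT and K1030R and intermediate in IR, whereas *C3* is at 18.7 ± 2.64 CPM in IR, 21.1 ± 4.78 in ∆CT, and 23.4 ± 2.51 in K1030R cells against 519 ± 24.2 in DKO.

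Complement and acute-phase genes also fell. Of 43 members 24 were tested and 16 called lower, with 0 called higher and a median log2 fold change of -1.55. *Serpina3n* (ENSMUSG00000021091, chr12:104406729-104414329), a secreted inhibitor of serine proteases, was at 20.4, 20.5 and 21.7 CPM in the DKO dishes and 0.533, 0.805 and 0.414 in the K1030R dishes (log2 -5.13 ± 0.17 SE). *Lcn2*, an iron-scavenging lipocalin, was at 55.2, 55.6 and 53.7 CPM in the DKO dishes and 3.79, 3.62 and 3.67 in the K1030R dishes (log2 -3.89), and *Saa3*, an acute-phase apolipoprotein, at 49, 44.6 and 48.8 CPM in the DKO dishes and 3.20, 2.97 and 3.16 in the K1030R dishes (log2 -3.93). *Cp* (ceruloplasmin, the copper oxidase) was at 184, 178 and 179 CPM in the DKO dishes and 34.3, 35.3 and 34.6 in the K1030R dishes (log2 -2.38). In the classical complement pathway *C4b* had 63 counts over the DKO and 0 over the K1030R libraries, at least 19.3-fold lower, and the proteases *C1ra* and *C1s1* fell by 1.22 and 1.17 on the log2 scale. *Ptx3* and *C1rl* did not pass the test, at 100.4 ± 9.33 and 16.4 ± 0.335 CPM in DKO and 109 ± 19.9 and 15.2 ± 0.909 in K1030R cells (adjusted p = 0.448 and 0.294 in edgeR). Without a filter on low counts, *Ptx3* did pass (log2 0.13). Of the tested members 7 were lower and 4 higher in K1030R than in IR cells. *Lcn2* was one of the latter, at 1.51 ± 0.303 CPM in IR against 3.70 ± 0.0844 in K1030R cells (adjusted p = 2.05e-08).

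Chemokines and interleukins moved both ways, with 8 of 29 called lower and 4 higher, the latter becoming 2 with limma and 1 with DESeq2. *Cxcl10*, an interferon-induced T cell attractant, was at 79.6, 91.9 and 87.2 CPM in the DKO dishes and 27.9, 27.7 and 25.2 in the K1030R dishes (log2 -1.68). *Cxcl5*, a neutrophil attractant, was at 127, 119 and 119.6 CPM in the DKO dishes and 43.6, 34.5 and 42.3 in the K1030R dishes (log2 -1.61), and the monocyte attractant *Ccl7* at 157, 160.1 and 145 CPM in the DKO dishes and 81.8, 67.4 and 78.7 in the K1030R dishes (log2 -1.02). *Il6* was low in both, at 2.88, 1.99 and 2.56 CPM in the DKO dishes and 0.770, 0.352 and 0.569 in the K1030R dishes (log2 -2.15). In the other direction, *Ccl9* was at 22.3, 20.8 and 21.1 CPM in the DKO dishes and 47, 43.4 and 44.3 in the K1030R dishes (log2 1.07) and *Cx3cl1* rose from 64.4 ± 4.28 to 109 ± 3.02 CPM (log2 0.76), a call lost without DKO replicate 1 (0.71), with limma (0.76), and with DESeq2 (0.75). The NF-κB list as a whole had 1 member called higher and 1 lower of 29, with a median log2 fold change of -0.09.

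Fibrillar collagens, the load-bearing chains of connective tissue, were higher in K1030R cells. Of 10 tested chains 6 were called higher, against 2.04% of all genes, 9 were significant without a minimum fold, and the median log2 fold change was 0.69. *Col1a1* (ENSMUSG00000001506, chr11:94936224-94953042) was at 3161, 3212 and 3420.1 CPM in the DKO dishes and 5912, 6286 and 6099 in the K1030R dishes (log2 0.90 ± 0.04 SE), the largest rise in CPM of any called gene. *Col1a2*, the other chain of type I collagen, was at 2429.5, 2453 and 2537 CPM in the DKO dishes and 4174, 4366 and 4213 in the K1030R dishes (log2 0.78). *Col11a1*, which nucleates fibrils, was at 198, 199 and 200.04 CPM in the DKO dishes and 452, 449 and 433 in the K1030R dishes (log2 1.16), and *Col5a2* rose from 936 ± 10.6 to 1474 ± 28.2 CPM (log2 0.66). The *Col5a2* call is near the threshold and was lost without K1030R replicate 1 (0.64) or 3 (0.65) or DKO replicate 2 (0.65), without a filter on low counts (0.66), with limma (0.65), and with DESeq2 (0.65). *Col1a1*, *Col1a2*, and *Col11a1* were all lower in K1030R than in IR cells (log2 -0.25, -0.33, and -0.87, adjusted p of 1.80e-05 or smaller in edgeR). Markers of smooth muscle cells and pericytes were measured beside them. Of 5 markers 4 were tested and all 4 were significantly higher in K1030R than in DKO cells, with a summed level of 564 to 577 CPM in DKO and 682 to 714 in K1030R. *Mcam* was at 0.924, 0.966 and 1.08 CPM in the DKO dishes and 4.32, 4.08 and 4.92 in the K1030R dishes (log2 2.15, called) and *Rgs5* at 1.52, 1.31 and 1.68 CPM in the DKO dishes and 3.97, 3.83 and 3.16 in the K1030R dishes (log2 1.26, a call lost with DESeq2). *Acta2* and *Cspg4* had log2 fold changes of 0.30 and 0.25, and *Myh11*, which defines smooth muscle, was untested at 12 counts in each group. Most of the summed level was *Acta2*, at 467 ± 10.3 CPM in DKO and 576 ± 18.4 in K1030R cells. In a wider list of contractile genes 1 of 33 tested members was called higher and 1 lower. Without a minimum fold 10 of that list were higher and 8 lower (median log2 -0.0058). The part of smooth muscle cells and pericytes in the collagen result was not tested.

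Other matrix genes moved in both directions. The basement membrane collagens *Col4a1* and *Col4a2*, which share 1 promoter region, fell from 299 ± 13.5 to 177 ± 2.99 CPM (log2 -0.76) and from 253 ± 11.9 to 157 ± 3.35 (log2 -0.68), while *Col4a5* rose (log2 0.83). The call of *Col4a2* was lost without K1030R replicate 2 (-0.68) or 3 (-0.67) or DKO replicate 3 (-0.64), without a filter on low counts (-0.68), with limma (-0.69), and with DESeq2 (-0.69). Of 27 integrins, laminins, and related genes 6 were called lower and 2 higher. *Lama4* fell by 1.48 on the log2 scale, and *Agrn* (agrin) by 1.71, whereas *Lama2*, the laminin chain of muscle and nerve basement membrane, was at 9.89, 10.6 and 11 CPM in the DKO dishes and 34.8, 38.5 and 35.2 in the K1030R dishes (log2 1.78). *Fbn2*, the fibrillin of early microfibrils, had the largest fold rise among named genes with at least 5 CPM, at 0.870, 0.966 and 0.721 CPM in the DKO dishes and 10.2, 12.2 and 12 in the K1030R dishes (log2 3.77 ± 0.14). *Fbn1*, the main fibrillin, went from 433 ± 8.56 to 387 ± 13.2 CPM (log2 -0.16). Microfibril and elastic fibre genes had 1 of 16 tested members called higher and 5 lower (3 lower with DESeq2), with a median log2 fold change of -0.17. *Thbs2*, thrombospondin 2, was among the largest falls in CPM, at 959, 961 and 962 CPM in the DKO dishes and 410.03, 416 and 409.6 in the K1030R dishes (log2 -1.22), while the small proteoglycans *Ogn* and *Aspn* rose by log2 1.43 and 1.24. Proteoglycan and tendon genes had 3 of 22 tested members called higher and 3 lower (median log2 -0.07). Without a minimum fold 8 were higher and 10 lower. The called lower count became 1 with limma, with DESeq2, or without K1030R replicate 3.

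Matrix proteases changed in both directions. The collagenase *Mmp13* was at 7.23, 5.85 and 7.29 CPM in the DKO dishes and 0.592, 0.503 and 0.724 in the K1030R dishes (log2 -3.48), stromelysin *Mmp3* at 9.62, 8.07 and 9.37 CPM in the DKO dishes and 1.18, 1.36 and 1.5 in the K1030R dishes (log2 -2.73), and *Mmp2* fell by 1.43 on the log2 scale. *Mmp8* had 29 counts over the DKO and 0 over the K1030R libraries, at least 8.89-fold lower. The aggrecanases *Adamts1* and *Adamts5* rose instead. *Adamts1* was at 326, 326 and 299 CPM in the DKO dishes and 872, 741 and 788 in the K1030R dishes (log2 1.34). *Adamts5* was at 167, 166 and 157 CPM in the DKO dishes and 499, 461 and 472 in the K1030R dishes (log2 1.55). The related *Adamts15* was untested, at 11 counts over the DKO and 6 over the K1030R libraries. Of 28 proteases and inhibitors 7 were called lower and 3 higher.

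Genes of the amino acid response rose in K1030R cells. This list holds ATF4, its targets, the serine and one-carbon enzymes, amino acid transporters, and tRNA synthetases, and 10 of 33 tested members were called higher (0 lower), 24 were higher without a minimum fold and 1 lower, and the median log2 fold change was 0.59. *Trib3* (ENSMUSG00000032715, chr2:152337422-152344032), a pseudokinase that binds AKT, was at 7.12, 7.44 and 7.13 CPM in the DKO dishes and 35.2, 33.2 and 34.6 in the K1030R dishes (log2 2.25 ± 0.09 SE). *Chac1*, which degrades glutathione, was at 4.40, 5.23 and 5.33 CPM in the DKO dishes and 17.2, 15.7 and 16.9 in the K1030R dishes (log2 1.73), and the cystine transporter *Slc7a11* at 11, 9.55 and 8.69 CPM in the DKO dishes and 27, 24.7 and 25.3 in the K1030R dishes (log2 1.40). *Asns* (asparagine synthetase) was at 49.1, 53.6 and 49 CPM in the DKO dishes and 108, 104 and 109 in the K1030R dishes (log2 1.08), and the serine enzyme *Psat1* and mitochondrial folate enzyme *Aldh1l2* rose by log2 0.91 and 1.37. *Atf4* itself went from 149 ± 5.53 to 236 ± 6.56 CPM (log2 0.67), significant but short of a call, while *Ddit3* (CHOP) was at 48.3 ± 0.466 in DKO and 44.2 ± 0.488 in K1030R cells. In the list of the endoplasmic reticulum stress response 1 of 24 members was called higher, with a median of 0.07. *Trib3*, *Asns*, and *Chac1* did not differ significantly between K1030R and IR cells (log2 -0.11, 0.02, and -0.04, adjusted p = 0.262, 0.736, and 0.79), and were higher than in JMO cells (log2 1.94, 0.56, and 1.32, adjusted p of 1.67e-12 or smaller in edgeR).

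Promoters of 4 of these genes are printed because they hold the element that ATF4 and C/EBP proteins bind in genes of the amino acid response, searched as TGATGNAA on both strands and marked in capitals (GRCm38.p6, RefSeq starts as before).
Trib3 (chr2:152344011-152344310, minus strand): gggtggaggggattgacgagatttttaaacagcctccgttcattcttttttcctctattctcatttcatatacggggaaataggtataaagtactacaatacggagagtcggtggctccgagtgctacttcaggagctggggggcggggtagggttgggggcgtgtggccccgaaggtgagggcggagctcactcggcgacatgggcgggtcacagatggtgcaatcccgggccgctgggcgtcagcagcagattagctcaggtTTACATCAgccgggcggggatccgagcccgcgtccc
Chac1 (chr2:119350992-119351291, plus strand): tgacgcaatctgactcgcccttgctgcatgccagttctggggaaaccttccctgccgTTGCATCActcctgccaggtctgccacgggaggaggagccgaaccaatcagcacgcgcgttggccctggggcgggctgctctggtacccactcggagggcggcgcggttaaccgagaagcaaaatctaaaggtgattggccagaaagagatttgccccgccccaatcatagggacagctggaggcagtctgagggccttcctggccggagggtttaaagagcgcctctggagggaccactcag
Asns (chr6:7693160-7693459, minus strand): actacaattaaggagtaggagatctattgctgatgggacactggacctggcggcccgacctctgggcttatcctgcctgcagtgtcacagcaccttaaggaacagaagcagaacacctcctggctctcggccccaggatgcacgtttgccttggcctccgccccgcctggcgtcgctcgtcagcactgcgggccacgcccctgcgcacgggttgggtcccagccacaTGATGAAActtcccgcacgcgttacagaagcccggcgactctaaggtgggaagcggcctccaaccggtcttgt
Slc7a11 (chr3:50443564-50443863, minus strand): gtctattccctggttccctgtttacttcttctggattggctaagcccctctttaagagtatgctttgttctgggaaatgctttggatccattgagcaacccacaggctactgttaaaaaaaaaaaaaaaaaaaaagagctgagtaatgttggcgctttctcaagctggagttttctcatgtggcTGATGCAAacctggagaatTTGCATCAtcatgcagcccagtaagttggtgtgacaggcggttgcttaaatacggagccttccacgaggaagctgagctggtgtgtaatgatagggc
Of the 10 called members 8 had a promoter in the table and 5 of these held the element, as did 9 of the 26 tested members with a promoter, against 2.94% of tested genes and 4.51% of all promoters. The *Slc7a11* window holds 2 matches. *Psat1*, *Mthfd2*, and *Atf5* hold none in this window.

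Lipid synthesis rose by small amounts in many genes. Of 22 enzymes of cholesterol synthesis, all tested, 19 were higher without a minimum fold and 0 lower, against 21.2% higher among all genes, with a median log2 fold change of 0.47, and 2 were called. That became 4 called without a filter on low counts, with the 6 libraries alone, or without K1030R replicate 1. *Hmgcs1* (ENSMUSG00000093930, chr13:119690379-119708260), an early synthase of the pathway, was at 661, 663 and 678 CPM in the DKO dishes and 1095, 1087 and 1113 in the K1030R dishes (log2 0.72 ± 0.04 SE). *Dhcr7*, the last step, rose from 51 ± 3.36 to 89.4 ± 7.78 CPM (log2 0.81). *Ggps1*, *Ebp*, and *Sc5d* did not pass the test (log2 -0.13, 0.08, and 0.09), although *Ggps1* passed in 4 alternatives, for example without DKO replicate 2 (-0.18), and *Sc5d* in 4, for example without K1030R replicate 2 (0.10). The sterol element TCACNCCAC was found in 1 of 17 promoters of these genes, and in 1.28% of tested genes. Compared with IR cells 20 of the 22 were higher in K1030R, for example *Idi1* at 532 ± 41.8 CPM in IR and 787 ± 30.4 in K1030R cells (log2 0.57, adjusted p = 4.93e-08 in edgeR).

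Among genes of fatty acid synthesis 15 of 23 were higher without a minimum fold, 1 was lower, and 3 were called higher, which became 1 with limma, with DESeq2, or without K1030R replicate 3. *Scd2*, a desaturase, was at 2200.4, 2238 and 2227 CPM in the DKO dishes and 3733, 3833 and 3873 in the K1030R dishes (log2 0.78), and *Fasn* and *Acly* rose by log2 0.37 and 0.50. *Elovl6*, an elongase, rose from 172 ± 6.43 to 289 ± 7.31 CPM (log2 0.75), a call lost without K1030R replicate 1 (0.73) or 3 (0.74) or DKO replicate 3 (0.72), with limma (0.75), and with DESeq2 (0.74). *Acsl3*, which activates long-chain fatty acids, rose from 129 ± 0.457 to 209 ± 2.51 CPM (log2 0.69), a call lost without K1030R replicate 2 (0.69) or 3 (0.69) or DKO replicate 1 (0.69) or 2 (0.69), with limma (0.69), and with DESeq2 (0.69). In the list of sterol control, uptake, and transport 0 of 21 tested members were called higher and 2 lower, and 8 were higher and 8 lower without a minimum fold (median log2 0.00046). The called members were the cholesterol exporter *Abca1* and *Npc2*. *Abca1* was at 2.28, 2.16 and 2.88 CPM in the DKO dishes and 0.237, 0.151 and 0.310 in the K1030R dishes (log2 -3.37) and *Npc2*, which moves cholesterol out of lysosomes, fell by 1.15 on the log2 scale. *Srebf2*, the main activator of sterol genes, was higher by log2 0.16 without a call.

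**Figure D4:**
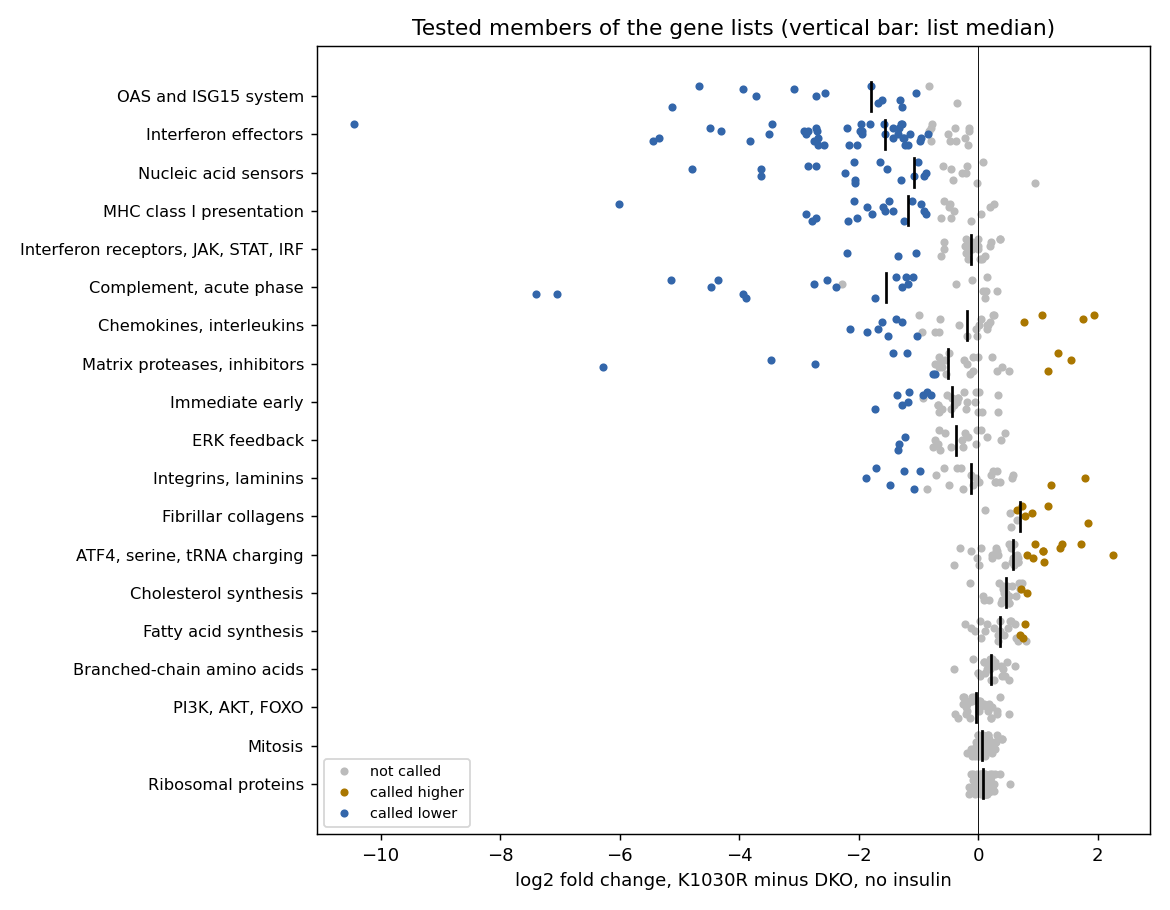
Log2 fold change (K1030R minus DKO) of the tested members of 19 gene lists, 1 dot per gene, coloured by call, with a vertical bar at each list's median. The lists of interferon targets and complement lie to the left (medians from -1.79 to -1.08), and fibrillar collagens and the ATF4 list to the right (0.69 and 0.59). The PI3K, mitosis, branched-chain amino acid, and ribosomal protein lists hold 0 called genes. Among all tested genes 2.04% were called higher and 3.25% lower.

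In the list of the IGF axis 3 of 12 tested members were called higher and 2 lower (1 lower with DESeq2), 4 were higher and 7 lower without a minimum fold, and the median log2 fold change was -0.15. *Igf1* (ENSMUSG00000020053, chr10:87858265-87937042), the ligand of the deleted IGF1R, was at 3.42, 3.58 and 3.40 CPM in the DKO dishes and 14.9, 13.2 and 13.4 in the K1030R dishes (log2 1.99 ± 0.11 SE), and *Pappa2*, a protease that frees IGF1 from its binding proteins, at 10.5, 11.1 and 11.9 CPM in the DKO dishes and 45.3, 48.2 and 49.5 in the K1030R dishes (log2 2.09). *Igfbp4* rose from 2.25 ± 0.30 to 6.45 ± 0.214 CPM and *Igfbp7* fell from 224 ± 7.21 to 112 ± 6.60. *Igf2*, a fetal growth factor, had 44 counts over the DKO and 4 over the K1030R libraries, 0.652, 0.739 and 0.761 CPM in the DKO dishes and 0, 0.201 and 0 in the K1030R dishes (log2 -3.23, a call lost with DESeq2, -3.36). *Igf2r*, the receptor that clears IGF2, was at 19.1, 16.3 and 17.7 CPM in the DKO dishes and 52.9, 53.1 and 55.1 in the K1030R dishes (log2 1.60). Of 10 tested imprinted growth genes 4 were called higher (2 with DESeq2) and 2 lower, *Igf2* and *Dcn* (decorin), with a median log2 fold change of 0.53. The *Dcn* call was lost in 7 alternatives, with values from -1.02 to -1.29. *Grb10* (ENSMUSG00000020176, chr11:11930508-12038683), an imprinted adaptor that binds and inhibits the insulin receptor, was at 125, 127 and 128 CPM in the DKO dishes and 258, 264 and 249.5 in the K1030R dishes (log2 1.02), and the imprinted *Peg10* rose by log2 1.59. *Igf1*, *Igf2r*, *Pappa2*, and *Grb10* were lower in K1030R than in IR cells (log2 -0.67, -0.18, -0.36, and -0.18, adjusted p of 0.00733 or smaller in edgeR).

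Of 32 other receptor tyrosine kinases 5 were called higher and 0 lower. *Egfr*, the EGF receptor, was at 28.8, 28.7 and 27.9 CPM in the DKO dishes and 69.6, 70.1 and 67.7 in the K1030R dishes (log2 1.28), and the others were *Mertk*, *Epha4*, *Epha1*, and *Ror1*, with log2 fold changes from 0.93 to 1.82. The *Mertk* call was lost without K1030R replicate 2 (0.91) or 3 (0.91) or DKO replicate 3 (0.84), with limma (0.93), and with DESeq2 (0.92). Among ligands of these receptors 5 of 35 were called lower and 2 higher, the latter becoming 1 with limma, with DESeq2, or without K1030R replicate 1 or DKO replicate 2 or 3. *Fgf2* was at 30.4, 30.9 and 33.2 CPM in the DKO dishes and 12.5, 13.7 and 12.3 in the K1030R dishes (log2 -1.30), and the EGFR ligand *Hbegf* fell by 0.87 on the log2 scale. Insulin receptor substrates and adaptors had 1 of 20 tested members called higher and 2 lower, with 4 higher and 8 lower without a minimum fold. The called lower count became 1 with limma, with DESeq2, or without K1030R replicate 3 or DKO replicate 1 or 3. In this list *Irs1* rose from 229 ± 5.53 to 326 ± 13.7 CPM (log2 0.51), short of a call, and *Irs2* did not pass the test (log2 0.04, adjusted p = 0.589 in edgeR). *Enpp1*, a membrane pyrophosphatase that binds the receptor, fell from 68 ± 0.961 to 33.4 ± 2.78 CPM (log2 -1.03).

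Many immediate early genes, the first transcripts after growth factor stimulation, were lower in the starved K1030R cells. Of 31 members 8 were called lower and 0 higher, 22 were lower without a minimum fold and 1 higher, and the median log2 fold change was -0.44. Their summed level overlapped between the groups, at 1660 to 2345 CPM in the DKO dishes and 1409 to 1916 in the K1030R dishes. *Jun* was at 103, 101 and 95.1 CPM in the DKO dishes and 47.2, 41.6 and 43 in the K1030R dishes (log2 -1.18), *Klf4* at 26.8, 27.3 and 29.5 CPM in the DKO dishes and 10.8, 11.5 and 10.3 in the K1030R dishes (log2 -1.36), and *Ccn2*, a matricellular protein, at 80.8, 79.7 and 69.5 CPM in the DKO dishes and 26.4, 20.3 and 22.6 in the K1030R dishes (log2 -1.73). Of the phosphatases and inhibitors that ERK induces against itself, 3 of 20 were called lower. *Dusp6*, the ERK phosphatase, was at 29.9, 29 and 30.9 CPM in the DKO dishes and 13.6, 10.1 and 12 in the K1030R dishes (log2 -1.34), *Dusp4* fell by 1.33 on the log2 scale, and *Errfi1*, an inhibitor of EGFR, by 1.22. *Spry1* and *Dusp10* were higher (log2 0.37 and 0.45). *Dusp6* was higher in K1030R than in IR cells (log2 0.42, adjusted p = 0.00253), whereas *Egr1* was lower (log2 -0.69, adjusted p = 4.74e-08 in edgeR).

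*Npr3* (ENSMUSG00000022206, chr15:11839896-11907287), the clearance receptor of natriuretic peptides, was at 50.9, 45.5 and 40.2 CPM in the DKO dishes and 271, 271 and 262 in the K1030R dishes (log2 2.56). Of 31 tested semaphorin, slit, and netrin genes with their receptors 6 were called higher and 6 lower (median log2 0.14). *Sema3d*, a semaphorin, was at 0.761, 0.739 and 1.32 CPM in the DKO dishes and 7.58, 8.71 and 7.71 in the K1030R dishes (log2 3.03), and the related *Sema3a* and *Sema3c* had log2 fold changes of 1.61 and -1.65. *Rspo2*, an amplifier of Wnt signals, was at 5.0, 4.94 and 5.41 CPM in the DKO dishes and 26.2, 31 and 27.7 in the K1030R dishes (log2 2.46), and the Wnt antagonist *Sfrp2* rose from 22.4 ± 1.05 to 79.2 ± 2.79 CPM while *Sfrp1* fell from 3.46 ± 0.496 to 0.267 ± 0.0845. Of 35 Wnt genes 6 were called higher and 4 lower, and the targets *Axin2* and *Lef1* did not pass the test (adjusted p = 0.53 and 0.318 in edgeR). *Flrt3*, *Ndnf*, *Ptprq*, and *Pcdh7* were also among the 10 largest rises at 5 CPM or more, with log2 fold changes from 2.24 to 2.98. *Agtr2*, the type 2 angiotensin receptor, had 38 counts over the K1030R and 3 over the DKO libraries, a ratio of 13.8 (95% counting interval 4.37 to 69.7). The stromal markers *Ly6a* (Sca-1), *Thy1*, and *Cd34* moved apart, with log2 fold changes of -3.67, 2.12, and 1.62: *Ly6a* was at 42.9, 49.2 and 42.6 CPM in the DKO dishes and 3.55, 3.42 and 3.57 in the K1030R dishes, and *Thy1* at 7.55, 5.85 and 6.45 CPM in the DKO dishes and 29.7, 28.1 and 28.5 in the K1030R dishes.

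Other lists of processes tied to insulin are given by their counts. With 2.04% of all genes called higher and 3.25% lower, a count of 0 in a list of 25 to 40 genes is near the background. Of 30 PI3K, AKT, and FOXO pathway genes 0 were called, with 8 higher and 12 lower without a minimum fold (median -0.03). Among 40 S-phase and 40 mitotic genes 0 were called, with 15 and 17 higher and 8 and 3 lower without a minimum fold, against 21.2% and 20.4% of all genes, and the medians were 0.04 and 0.06. Ribosomal protein genes had 0 of 79 called and 26 higher and 1 lower without a minimum fold (median 0.08), and respiratory chain genes 1 of 89 called, with 35 higher and 4 lower without a minimum fold (median 0.08). Enzymes of branched-chain amino acid breakdown had 0 of 25 called, but 17 were higher without a minimum fold and 1 lower (median 0.20). Against IR cells, in contrast, 39 of the 40 mitotic genes were higher in K1030R, with a median log2 difference of 0.37.

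K1030R cells were also measured after 100 nM insulin for 15 min. Of all tested genes 17 (0.110%) were then significantly higher and 7 (0.0454%) lower than in the starved K1030R dishes, without a minimum fold. Leaving out 1 library gave as few as 7 higher (without K1030R insulin replicate 3) and 3 lower, and without a filter on low counts 105 were higher and 73 lower. The higher genes included 3 of the 31 immediate early genes, *Egr1*, *Ccn1*, and *Ier3*. *Egr1*, a zinc finger transcription factor, was at 68.2, 69 and 66.5 CPM without insulin and 99.98, 90.9 and 88.8 with it (log2 0.46, adjusted p = 0.002 in edgeR). *Ccn1*, a matricellular protein, went from 30.8 ± 2.30 to 49 ± 1.89 CPM (mean ± SD, n = 3; log2 0.67, adjusted p = 3.52e-05 in edgeR). *Ier3* went from 19.3 ± 1.57 to 25.4 ± 0.277 CPM (log2 0.40, adjusted p = 0.00677 in edgeR), and no longer passed without K1030R replicate 3 (0.33) or K1030R insulin replicate 1 (0.39) or 3 (0.40). *Adamts1* went from 800.3 ± 66.4 to 932 ± 10.7 CPM (log2 0.22, adjusted p = 0.017 in edgeR), and no longer passed when any 1 of 5 of the 6 libraries was left out (0.17 to 0.23). *Isg15*, *Trib3*, and *Col1a1* did not pass the test, at 19.3 ± 4.55, 35.2 ± 1.57, and 6075 ± 37.4 CPM (mean ± SD, n = 3), against 18.3 ± 2.26, 34.3 ± 1.02, and 6099 ± 187 without insulin (adjusted p = 0.993, 0.991, and 1 in edgeR). The DKO cells were measured without insulin only.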

How the data were processed

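RNA from 26 libraries was sequenced after poly(A) selection, and 6 of them are compared here. Per the labels and the study's methods, the authors trimmed reads with fastp, quantified mouse Ensembl transcripts (GRCm38) in kallisto, and collapsed them into gene values through tximport; the versions of these tools are not given in the sources used here. The deposited values are expected counts per gene, 79.93% of them whole numbers, which were rounded here before testing.

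Genes with more than 0.5 CPM in at least 4 of the 26 libraries were kept (15402). All 9 groups were fitted together with TMM scaling and the quasi-likelihood model of edgeR 4.0.16 (R 4.3.3), without a block. A call needed a minimum fold of 1.5 in glmTreat and an adjusted p below 0.05 (Benjamini-Hochberg over all tested genes), and "significant" or "without a minimum fold" means the plain quasi-likelihood test. This scheme follows the study's, which used limma. The CPM values are TMM-scaled. Totals per library bound the precision, and intervals cover counting error only. The code was tested on simulated data.

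The named genes are the targeted genes, the 10 largest log2 fold changes in each direction at 5 CPM or more (predicted genes left out), the 5 largest differences in CPM, the 5 highest genes with 3 or fewer counts in the other group, up to 4 called members of each list, and list members named for their roles. The groups, gene lists, and named genes were chosen with earlier results of these data known. Tests against IR, ∆CT, and JMO cells were planned for single genes, and counts of list members in them, the comparison of K1030R cells with and without insulin, and the alternatives for these were chosen after seeing the data. Promoters came from RefSeq (GRCm38.p6) by symbol, for 10829 tested genes. Same-numbered DKO and K1030R dishes had correlations of -0.033 to 0.014 in their deviations from the group means (-0.011 to 0.036 between K1030R dishes with and without insulin), so the numbers do not pair them. Alternatives were other scalings, filters, unrounded counts, the 6 libraries alone, a replicate block, leaving out each library, limma 3.58.1, DESeq2 1.42.0, a minimum fold of 2, and an adjusted p below 0.001. Some genes that the rule names are not reported here.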

Additional observations from a re-analysis of the deposited data

How the results depend on the processing

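Calls of 314 higher and 500 lower genes became 136 and 262 at a minimum fold of 2, and 198 were higher with DESeq2 and also at an adjusted p below 0.001. Leaving out each library gave 279 to 299 higher and 457 to 483 lower calls, and 2864 to 2965 higher and 2791 to 2914 lower genes without a minimum fold. Against IR the ranges were 1717 to 2073 higher and 2028 to 2549 lower, against JMO 2348 to 2566 and 2326 to 2484, and against ∆CT 161 to 338 and 114 to 229. Between K1030R cells with and without insulin, 17 genes higher and 7 lower became 105 and 73 without a filter on low counts, 7 to 14 and 3 to 4 when each library was left out, and 18 and 8 with the replicate block. The same-numbered dishes share only a number. With the replicate block 317 genes were called higher and 507 lower (3302 and 3186 without a minimum fold). Without a minimum fold the block gave 2205 higher and 2539 lower against IR, 345 and 259 against ∆CT, and 2854 and 2727 against JMO.

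Of 4058 log2 fold changes of 271 named genes under the alternatives, 3920 kept direction and side of the threshold, 121 no longer passed their threshold, and 11 newly passed it. The 6 that changed sign were *Pecam1* without K1030R replicate 1 (-0.02) or DKO replicate 3 (-0.16), *Mavs* (0.0050) and *Ptx3* (-0.016) without K1030R replicate 1, and *Zic1* without K1030R replicate 2 (0.0087) or DKO replicate 3 (0.011), none of which passed the test. Leaving out each library gave -0.16 to 0.32 for *Pecam1*, -0.073 to 0.0050 for *Mavs*, -0.016 to 0.25 for *Ptx3*, and -0.027 to 0.011 for *Zic1*. With insulin, *Isg15* (0.06) changed sign without K1030R replicate 1 (-0.02) or K1030R insulin replicate 1 (-0.13), and *Col1a1* (-0.0056) without K1030R replicate 2 (0.017), none of them past the test. Leaving out each library gave -0.13 to 0.20 for *Isg15* and -0.028 to 0.017 for *Col1a1*. The cause was not tested. Of 48 list counts of 2 or more 15 moved by over 1.5 times in some setting. Genes at a few counts are limited by depth, and the p-values reach only the spread between these samples.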
